A study of Homo sapiens with 2 samples.

Results

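Genomic imprinting restricts the expression of a gene to the copy inherited from the mother or from the father. It is set by differentially methylated regions, CpG-rich stretches whose DNA is methylated on the copy from a given parent. At promoters inside such regions H3K4me3, the histone mark of active promoters, is known to lie on the unmethylated copy, and a stretch methylated on both copies is expected to lack the mark. H3K4me3 regions at 9 imprinted loci were examined in HEC-1-B cells, an established human endometrial adenocarcinoma line. The loci were H19, IGF2, KCNQ1OT1, SNRPN, MEG3, PEG10, MEST, GNAS and PLAGL1. Regions were assigned to the loci by position and not by their values. They counted as members when they lay within 6 kb of a promoter position for H19, KCNQ1OT1, SNRPN, MEG3, PEG10 and PLAGL1, or inside a window of 21 kb at IGF2, 22 kb at MEST and 77 kb at GNAS. By this rule, 9 of the 19782 wild-type regions on chromosomes 1 to 22, X and Y and 9 of the 19647 knockout regions were members.

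The series comprised 1 H3K4me3 ChIP-seq library from wild-type HEC-1-B cells and 1 from HEC-1-B cells with a knockout of ZNF143, a zinc-finger transcription factor that binds promoters. The labels do not say whether the knockout cells were a single clone, and they give no treatment or time for either group. With 1 library per genotype there was no replicate check, and no test between genotypes was made. The region lists do not measure ZNF143 itself, so the knockout label was not checked, and they do not separate the parental copies of a locus. The median summit pileup, the number of fragments stacked at the top of a region, was 197 for wild-type regions and 355 for knockout regions. Because depth differed, regions were compared by their percentile within their own list, where 100 is the strongest region.

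Regions were found at 5 of the 9 loci, the same 5 in each list. KCNQ1OT1, SNRPN, PEG10, MEST and GNAS carried regions. H19, IGF2, MEG3 and PLAGL1 carried none in either list. When the separate promoters inside the 3 windows were counted singly, 6 of 15 promoters were marked and 9 were unmarked in the wild-type list, and the counts were the same in the knockout list. A promoter at a given position counted as marked with a region within 1 kb, and a promoter inside a window with a region within 2 kb of its position. No annotation of the hg19 build was used, so promoters inside the windows were placed to the nearest kb from general knowledge of the loci, and their distances carry that rounding.

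DNA sequences from the members are shown first, because CpG content is a property of these loci that the assignment of regions did not use. The RefSeq promoter table held entries for 6 of the 9 members, namely GNAS, H19, MEG3, MEST, PLAGL1 and SNRPN. The sequences are the 250 bases before the listed start, on the strand of the gene, in build GRCh38.p14, with each CpG in capitals. They could not be placed on the hg19 regions base by base.
SNRPN start shared with SNURF, chr15:24954737-24954986, + strand: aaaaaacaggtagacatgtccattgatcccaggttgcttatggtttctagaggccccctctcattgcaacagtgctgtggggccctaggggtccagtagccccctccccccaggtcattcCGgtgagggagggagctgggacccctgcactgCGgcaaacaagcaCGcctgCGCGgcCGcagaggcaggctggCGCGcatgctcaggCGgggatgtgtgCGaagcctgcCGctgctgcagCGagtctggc
MEST, most upstream listed start, chr7:130485925-130486174, + strand: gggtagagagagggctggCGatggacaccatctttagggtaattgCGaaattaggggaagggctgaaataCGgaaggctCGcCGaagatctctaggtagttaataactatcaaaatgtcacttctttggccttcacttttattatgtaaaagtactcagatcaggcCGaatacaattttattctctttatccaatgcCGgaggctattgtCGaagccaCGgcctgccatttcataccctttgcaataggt
MEST, downstream listed start, chr7:130491808-130492057, + strand: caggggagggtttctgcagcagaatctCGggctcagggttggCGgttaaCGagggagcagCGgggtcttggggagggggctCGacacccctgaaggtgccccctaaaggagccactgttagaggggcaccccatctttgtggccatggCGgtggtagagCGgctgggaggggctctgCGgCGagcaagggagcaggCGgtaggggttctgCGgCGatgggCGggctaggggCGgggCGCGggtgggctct
PLAGL1 start shared with HYMAI, chr6:144008260-144008509, - strand: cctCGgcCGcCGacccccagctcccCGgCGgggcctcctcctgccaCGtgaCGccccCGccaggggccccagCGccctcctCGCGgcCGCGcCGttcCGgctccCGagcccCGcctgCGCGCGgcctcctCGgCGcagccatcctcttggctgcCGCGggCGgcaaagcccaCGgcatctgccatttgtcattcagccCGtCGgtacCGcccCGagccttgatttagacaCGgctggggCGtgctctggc
MEG3, most upstream listed start, chr14:100825858-100826107, + strand: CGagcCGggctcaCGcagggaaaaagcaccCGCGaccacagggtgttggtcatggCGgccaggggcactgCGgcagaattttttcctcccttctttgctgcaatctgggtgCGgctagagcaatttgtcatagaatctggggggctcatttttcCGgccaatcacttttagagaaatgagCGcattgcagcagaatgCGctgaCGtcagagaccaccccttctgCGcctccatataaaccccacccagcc
H19, chr11:2001267-2001516, - strand: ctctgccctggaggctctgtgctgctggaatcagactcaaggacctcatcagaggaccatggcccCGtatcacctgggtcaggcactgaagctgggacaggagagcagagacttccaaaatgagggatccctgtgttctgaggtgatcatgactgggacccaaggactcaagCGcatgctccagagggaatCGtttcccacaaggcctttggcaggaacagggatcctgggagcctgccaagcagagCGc
The SNRPN sequence held 12 CpGs and stood at the 52.6 percentile of the 34943 listed human starts. The upstream MEST sequence held 9 CpGs, at the 47.0 percentile, and the 250 bases before a further MEST start 0.172 kb downstream of it held 20, at the 68.7 percentile. Among the starts named for unmarked promoters, the PLAGL1 sequence held 32 CpGs (91.2 percentile) and the downstream MEST sequence 16 (60.2 percentile). The MEG3 sequence held 13 (54.4 percentile) and the H19 sequence 4 (31.9 percentile). Further downstream MEST starts, not printed, lay 5.15 and 5.91 kb from the first. Their sequences held 11 (50.7 percentile) and 20 CpGs (68.7 percentile). The 6 listed GNAS starts, not printed, held 9 to 33 CpGs, and the 33 (92.5 percentile) belonged to the most downstream of those listed, 49.4 kb from the first. The listed GNAS starts were not matched to named first exons, so that count is not assigned to the Gs alpha promoter. CpG counts of marked and unmarked promoters thus overlapped. The letters ACTACAA, the start of the known ZNF143 motif, were searched on both strands of these 250 bases. They were present at 0 of the 24 listed starts of the 6 members and at 2.46% of all listed starts. That count says only that these letters were not in these windows.

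The positions and windows of the unmarked loci were far from any region. H19 is a noncoding RNA made from the maternal copy, and IGF2, its neighbour on chromosome 11, encodes a fetal growth factor made from the paternal copy. From the H19 position (chromosome 11, 2019065), the nearest region ended 49.4 kb away in the wild-type list and 49.3 kb away in the knockout list. The same region was the nearest to the IGF2 window (chromosome 11, 2150000 to 2171000), at 180.3 kb and 180.2 kb. It spanned 1968528 to 1969710 in the wild-type list, with a fold of 14.6 at the 70.1 percentile. The H19 and IGF2 promoters therefore lay in a stretch of chromosome 11 without a called region in either list. PLAGL1 encodes a growth-restraining zinc-finger protein and is expressed from the paternal copy. The nearest region to its position (chromosome 6, 144329500) began 55.4 kb away in the wild-type list and 55.2 kb away in the knockout list, on the upstream side, with a fold at the 51.3 and the 74.1 percentile. RefSeq also lists a PLAGL1 start 56.3 kb upstream of the start shared with HYMAI in GRCh38, which is close to that distance, but it was not placed on hg19. The absence of a region therefore concerns the promoter shared with HYMAI and not every PLAGL1 start. MEG3 is a maternally expressed noncoding RNA on chromosome 14. From its position (101292445), the nearest wild-type region began 403.4 kb away and the nearest knockout region ended 132.8 kb away. MEG3 was the unmarked locus with the longest distance in the wild-type list and the only one of the 4 whose nearest region differed between the lists.

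**Figure D1:**
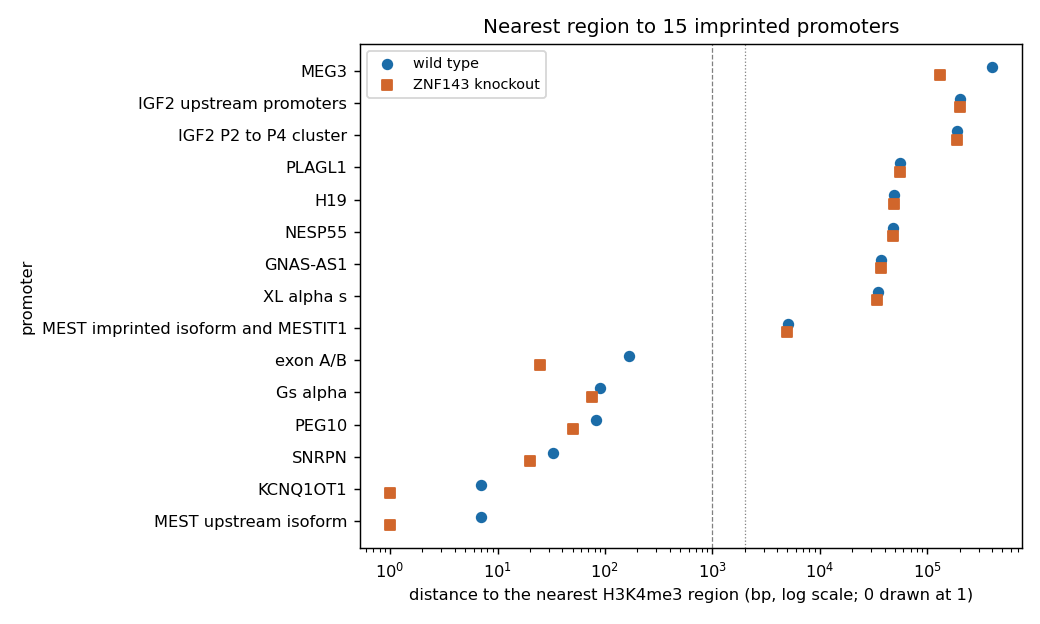
Distance in bp, on a log axis, from each of 15 imprinted promoters to the nearest H3K4me3 region in the wild-type list (circles) and the knockout list (squares). A distance of 0 is drawn at 1, and the dashed and dotted lines mark 1 kb and 2 kb. The 6 marked promoters lie left of the dashed line in each list, the downstream MEST promoter lies near 5 kb, and the other 8 lie beyond 30 kb.

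MEST had a mark at its upstream promoter and none at its imprinted promoter. MEST encodes a hydrolase-like protein that is expressed from the paternal copy in many fetal tissues. Its upstream promoter is generally regarded as expressed from both copies, while the promoter about 6 kb downstream, shared with the antisense RNA MESTIT1, lies in the differentially methylated region. In the wild-type list, a region of 986 bp spanned chromosome 7 from 130126007 to 130126992. In the knockout list, it spanned 130125968 to 130127075, a width of 1108 bp. The nearest region to the downstream promoter was this same region, 5.01 kb away in the wild-type and 4.93 kb away in the knockout list. The authors' fold is the ratio of summit pileup to the local background rate, with a small constant added to each. The fold was 16.9 for the wild-type and 17.1 for the knockout region. It stood at the 81.7 and the 84.7 percentile, the highest of the 9 member regions in each list. The −log10 q was 161 at the 55.4 percentile in the wild-type and 320.3 at the 58.8 percentile in the knockout list. MEST was the only member region above the middle of its list by −log10 q, in each list.

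At GNAS the mark was confined, among the promoters placed in the window, to the downstream pair. GNAS encodes the alpha subunit of the stimulatory G protein and uses several first exons. Those of the secretory protein NESP55, the antisense RNA GNAS-AS1 and the extra-large form XL alpha s lie upstream. Exon A/B, a differentially methylated first exon, lies just before the promoter of Gs alpha itself. The first member region began 53.5 kb into the window in wild-type cells and 53.3 kb in knockout cells, so the part of the window that holds the 3 upstream promoters had no region in either list. The XL alpha s promoter, the closest of the 3, lay 34.5 kb and 34.3 kb from the nearest region.

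The widest GNAS region lay at the Gs alpha promoter. It spanned chromosome 20 from 57466089 to 57467887 in the wild-type list, a width of 1799 bp at the 95.3 percentile of widths. In the knockout list it spanned 57466075 to 57467899, a width of 1825 bp at the 92.7 percentile. Its fold was 6.79 and 5.69, at the 23.9 and the 20.5 percentile, and its pileup was 272 and 528 fragments, at the 60.4 and the 63.0 percentile. The Gs alpha region was thus above the middle of each list by width and pileup and below it by fold. The local background rate recovered there, divided by the genome rate of its library, was 27.9 in wild-type and 28.3 in knockout cells, against list medians of 11.8 and 9.62. A high rate in the denominator lowers the fold of a region with a given pileup. No control library was named in the sources used here. Whether the rate includes H3K4me3 signal of the same library was therefore not tested.

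The regions around exon A/B were the ones whose extent differed most between the lists. The first, at 57463481 to 57463832 in the wild-type list, was 352 bp wide, and its knockout partner at 57463278 to 57463840 was 563 bp wide. The second, at 57464300 to 57464554, was 255 bp wide in the wild-type list, and its knockout partner at 57464025 to 57465081 was 1057 bp wide. That width ratio of 4.15 exceeded those of 99.8% of one-to-one pairs, which are regions with a single partner in each direction. Their folds were the lowest of all members, 3.82 and 3.10 in the wild-type list (6.08 and 2.68 percentile) and 4.05 and 3.28 in the knockout list (10.6 and 4.95 percentile). The knockout summits lay 4 bp and −2 bp from the wild-type ones, so the regions differed in extent around nearly the same summits. The knockout list had the deeper library and wider regions in 82.2% of all pairs, and the part of depth in this width difference was not tested.

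**Figure D2:**
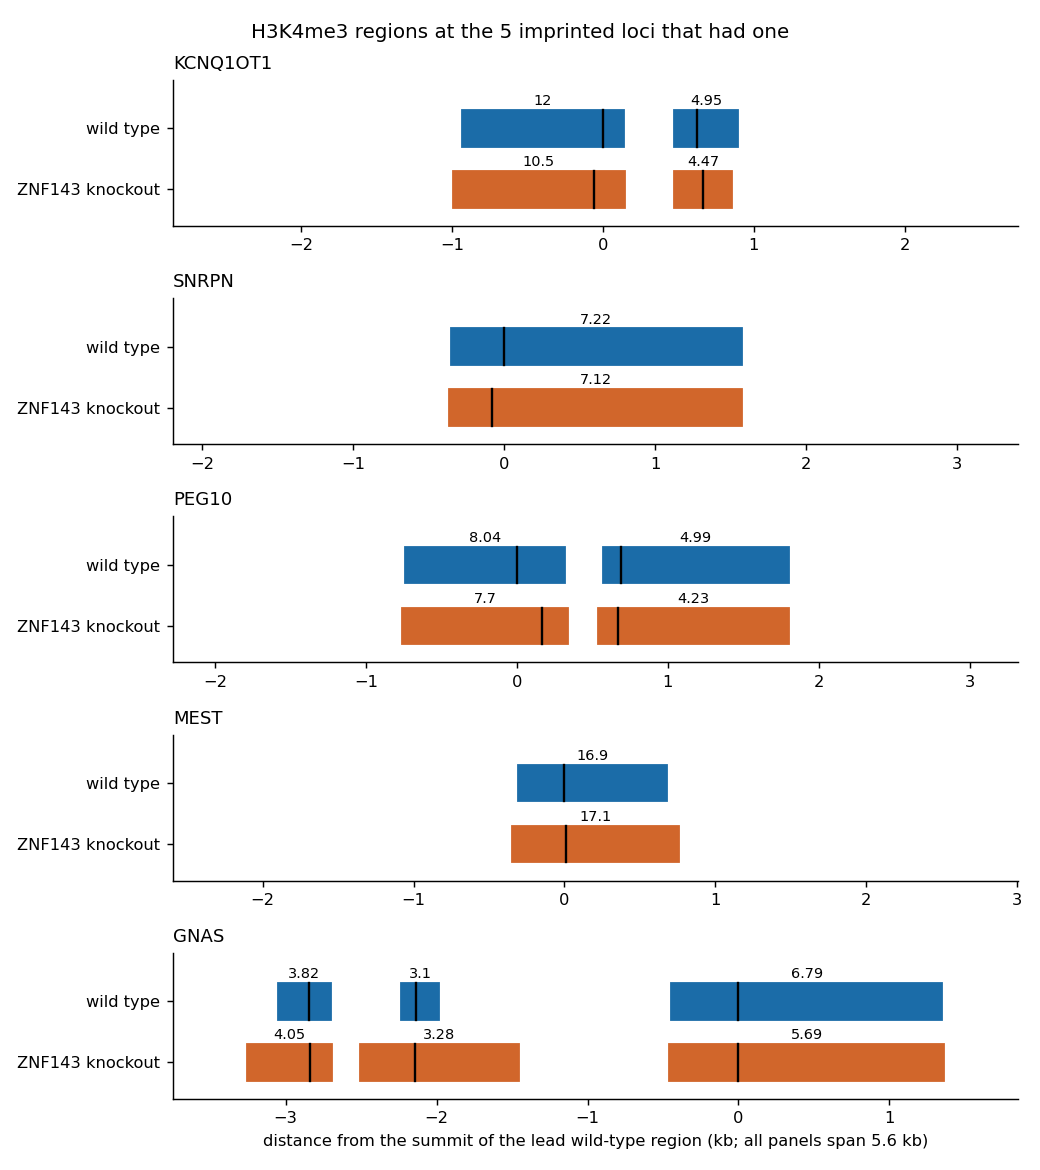
Extent of each member region at the 5 marked loci, in kb from the summit of the lead wild-type region, for wild-type (upper bars) and knockout cells (lower bars). Black lines mark summits, numbers give the authors' fold, and all panels have the same scale. The second GNAS region is wider in the knockout list (1057 against 255 bp), while the SNRPN and Gs alpha regions have nearly the same extent in each list.

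SNRPN carried a single, very wide region. SNRPN encodes a splicing protein, and the start it shares with SNURF lies in the imprinting centre of the Prader-Willi and Angelman region, where the paternal copy is active. The region spanned chromosome 15 from 25200167 to 25202091 in the wild-type list and 25200154 to 25202093 in the knockout list. It began 33 bp and 20 bp after the promoter position (25200134) and ran into the gene. Its width was 1925 bp at the 97.2 percentile in the wild-type and 1940 bp at the 95.2 percentile in the knockout list. Its fold was 7.22 and 7.12, at the 26.0 and the 27.0 percentile, and its −log10 q was 47.5 and 86.9, at the 32.3 and the 33.9 percentile. The SNRPN region was therefore among the widest of each list and below the middle by strength, and its ranks by fold and by −log10 q differed by under 2 points between the lists. The next region of the chromosome beyond the 6 kb limit was 482.8 kb away in each list.

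At PEG10 a pair of regions flanked the promoter position. PEG10 is a retrotransposon-derived gene expressed from the paternal copy, and it shares a divergent promoter with SGCE, which encodes epsilon-sarcoglycan. On the SGCE side, the region spanned chromosome 7 from 94284407 to 94285470 for wild type and 94284391 to 94285492 for the knockout. On the PEG10 side, it spanned 94285719 to 94286952 and 94285687 to 94286954. The gap between them was 248 bp among wild-type and 194 bp among knockout regions, and the promoter position (94285637) fell inside it in each. The SGCE-side region was the stronger, with a fold of 8.04 against 4.99 in the wild-type and 7.70 against 4.23 in the knockout list. In fold percentile the SGCE side stood at 30.4 and 29.5, and the PEG10 side at 12.4 and 11.2. Neighbouring regions with a gap of at most 500 bp made up 15.4% of all wild-type and 12.4% of all knockout neighbours, so a split of this kind was not rare.

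KCNQ1OT1 had the same layout. It is a long noncoding RNA that starts inside the KCNQ1 gene on the unmethylated paternal copy, runs antisense to KCNQ1 and is known to silence nearby genes in cis. The stronger region, on the side into which the RNA is transcribed, spanned chromosome 11 from 2720151 to 2721221 for wild type and 2720089 to 2721230 for the knockout. The weaker one spanned 2721558 to 2721982 and 2721554 to 2721939. The gap was 336 bp and 323 bp wide. The promoter position (2721228) lay 7 bp past the end of the stronger region in the wild-type list and inside it, by 2 bp, in the knockout list. The fold of the stronger region was 12.0 in wild-type and 10.5 in knockout cells, at the 53.3 and the 44.9 percentile. The −log10 q was 97.4 and 77.7, at the 44.4 and the 32.2 percentile. The weaker region had a fold of 4.95 and 4.47, at the 12.3 and the 13.7 percentile. Its −log10 q was 20.4 and 16.4, at the 21.0 and the 15.3 percentile. KCNQ1OT1 was the only member locus whose −log10 q and pileup were lower in the knockout list in absolute terms, although the knockout library was the deeper. The region near PHLDA2, an imprinted gene of the same cluster, was also lower in −log10 q (224.6 and 184.3) and in pileup (298 and 268 fragments).

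Ranked together, the members stood low in their lists by fold and nearer the middle by pileup. By fold, 7 of 9 wild-type and 8 of 9 knockout regions lay below the middle of the list, with a median percentile of 23.9 and 20.5. By −log10 q, 8 of 9 lay below it in each list, with a median of 32.3 and 33.9. By pileup, the median percentile was 41.8 and 42.1. By width, 6 of 9 wild-type and 7 of 9 knockout regions lay above it, with a median of 63.2 and 57.0. The fold percentile was below the −log10 q percentile for 7 of 9 regions in each list, against 49.8% of all wild-type and 48.8% of all knockout regions. The regions of 1 locus share its local rate, so these counts rest on 5 loci and not on 9 separate observations.

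**Figure D3:**
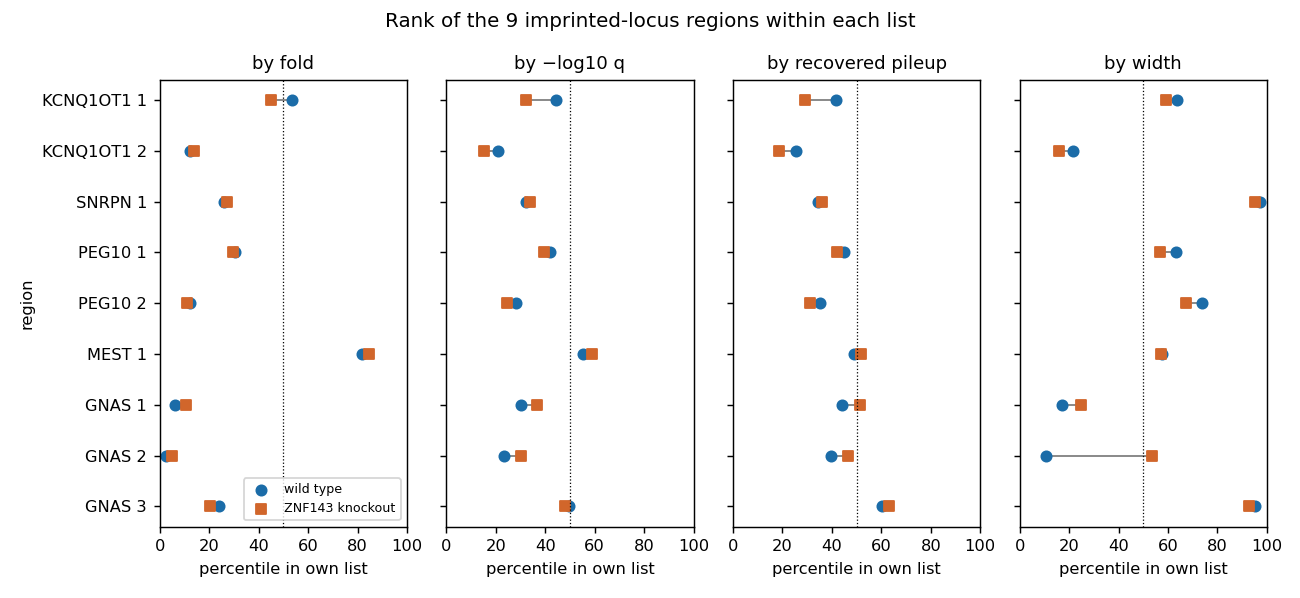
Percentile of each member region within its own list by fold, −log10 q, recovered pileup and width, for wild-type (circles) and knockout (squares), with the middle of the list dotted. Regions of a locus are numbered by increasing coordinate, so that GNAS 3 is the Gs alpha region. By fold, MEST stands highest (81.7 and 84.7) and the exon A/B regions of GNAS lowest, and the largest horizontal difference is the width of the second GNAS region.

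All 9 member regions overlapped a region of the other list, each with a single partner. Over the whole lists, 94.5% of wild-type regions and 90.3% of knockout regions overlapped the other list, so the complete sharing was near the background. By fold, 0 of 9 pairs stood higher or lower by more than 10 percentile points in the knockout list, where 8.9% of 16501 pairs stood higher and 9.44% lower by that much. The fold percentile was lower in the knockout list by any amount in 4 of 9 pairs, against 50.1% of all pairs. The median shift of the 9 pairs was 0.99 points, and that of all pairs was −0.01. By −log10 q, 0 of 9 stood higher and 1 of 9 lower by more than 10 points, against 8.98% and 6.07% of all pairs, and 5 of 9 stood lower by any amount, against 44.4%. The pair past 10 points was the stronger KCNQ1OT1 region, with a shift of −12.1 points. By pileup its shift was −12.7 points. The 88 other pairs within 5 Mb of it had median shifts of −8.07 points by pileup and 1.31 points by fold. The knockout region was wider in 8 of 9 pairs, against 82.2% of all pairs, with a median width ratio of 1.04 against 1.06.

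Pileups were then compared with those of the surrounding chromosome, since the knockout to wild-type ratio varied along the genome. Each ratio, knockout over wild type on the log2 scale, had the median over all pairs subtracted and is given with an exact 95% interval that covers counting error only. At the stronger KCNQ1OT1 region the pileup was 137 fragments in wild-type and 118 in knockout cells, a centred log2 ratio of −1.11 (−1.48 to −0.74). At the weaker it was 56 and 50, a ratio of −1.06 (−1.64 to −0.48). The 88 other pairs within 5 Mb had a median of −0.54 with quartiles of −0.72 and −0.32, so this end of chromosome 11 was lower as a whole. The stronger KCNQ1OT1 region was lower than all 88 neighbours, and 2 of 88 lay below the weaker. The counting interval of the weaker region reached the neighbours' median, and that of the stronger region did not. Over the genome, 1.45% and 1.68% of pairs had a lower ratio than the stronger and the weaker region.

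The other members stayed closer to their surroundings. SNRPN, with 94 and 177 fragments, had a centred ratio of 0.02 (−0.35 to 0.40) and 30 neighbours with a median of 0.02. MEST, with 189 and 381 fragments, had a ratio of 0.12 (−0.14 to 0.38) against a neighbour median of 0.00. Gs alpha, with 272 and 528 fragments, had a ratio of 0.06 (−0.15 to 0.28) against 0.05. The intervals of these 3 regions all included the median of their neighbours. The exon A/B regions were higher, at 0.40 (0.12 to 0.68) and 0.40 (0.09 to 0.71), and 51 of 57 neighbours lay below each, with a neighbour median of 0.05 under both intervals. The PEG10 pair was lower, at −0.28 (−0.57 to 0.02) on the SGCE side and −0.46 (−0.84 to −0.07) on the PEG10 side, against a neighbour median of −0.06. On the PEG10 side 5 of 59 neighbours were lower still, and the interval ended just below the neighbours' median.

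**Figure D4:**
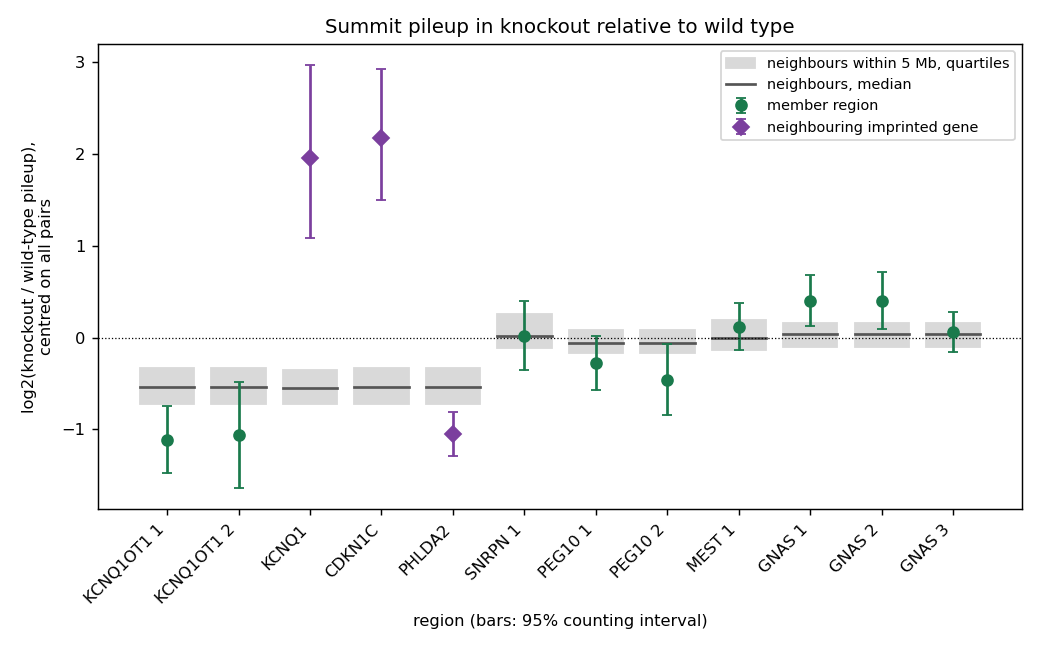
Centred log2 ratio of knockout to wild-type summit pileup for the 9 member regions (circles) and for 3 imprinted neighbours of KCNQ1OT1 (diamonds), with 95% counting intervals. Grey boxes and lines give the quartiles and median of the pairs within 5 Mb, with member regions left out. For KCNQ1 and PHLDA2 these pairs include the plotted one. KCNQ1OT1 and PHLDA2 lie below their neighbours near −1, and KCNQ1 and CDKN1C lie above them near 2.

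The imprinted genes around KCNQ1OT1 differed from each other in direction. PHLDA2 went the same way as KCNQ1OT1, and KCNQ1 and CDKN1C went the other way. KCNQ1 encodes a potassium channel, CDKN1C the cell-cycle inhibitor p57 and PHLDA2 a growth-restraining protein of the placenta, and all are known to be expressed from the maternal copy in some tissues. Near the KCNQ1 start, the wild-type region at 2466307 to 2466596 had 12 fragments and a fold of 5.41 (15.6 percentile), and the knockout region at 2466183 to 2466891 had 87 fragments and a fold of 15.4 (76.8 percentile). Near CDKN1C, the lead wild-type region at 2905546 to 2906417 had 20 fragments and a fold of 6.92 (24.3 percentile). The knockout region at 2905195 to 2906927 had 168 fragments and a fold of 11.7 (53.0 percentile), and it overlapped both wild-type regions there. Near PHLDA2, the wild-type region at 2949486 to 2950617 had 298 fragments and a fold of 13.8 (65.0 percentile), and the knockout region at 2949411 to 2950636 had 268 fragments and a fold of 11.7 (53.3 percentile). The centred log2 pileup ratios were 1.96 (1.09 to 2.97) at KCNQ1, 2.18 (1.5 to 2.92) at CDKN1C and −1.05 (−1.29 to −0.80) at PHLDA2. Within this imprinted cluster, KCNQ1 and CDKN1C were thus higher in the knockout list while KCNQ1OT1 and PHLDA2 were lower, against a common neighbourhood median of −0.54.

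A list of 16 other imprinted genes, placed to the nearest kb in the same way, gave the wider setting. In each list, 9 of the 16 had a region within 6 kb and 7 had none. NNAT was counted through a region 5.13 kb from its placed start in the wild-type and 5.09 kb in the knockout list. That is beyond the 1 kb and 2 kb limits used for marked promoters. The genes without a region within 6 kb included MKRN3, MAGEL2 and NDN, paternally expressed neighbours of SNRPN. Their nearest regions were 431.1, 514.1 and 553.1 kb away in the wild-type list. UBE3A, the Angelman syndrome ubiquitin ligase in the same cluster, had 2 regions in each list. The stronger by −log10 q stood at the 44.3 percentile by fold in the wild-type and the 44.6 percentile in the knockout list. By −log10 q it stood higher, at the 77.4 and the 76.4 percentile. DLK1, the paternally expressed neighbour of MEG3, had none within 6 kb. The median fold percentile of the strongest region by −log10 q of each marked gene was 49.7 for wild type and 53.3 for the knockout. On the same basis, the strongest regions of the 5 marked member loci had medians of 30.4 and 29.5. By −log10 q, the medians were 49.7 and 49.9 for the other genes and 44.4 and 39.3 for the member loci. The sets thus lay closer by −log10 q than by fold. For 8 genes the strongest region was the same in each list. By fold, 4 of these 8 stood higher by more than 10 points in the knockout list and 1 stood lower. Among the 7 that formed one-to-one pairs, which leaves out CDKN1C, the counts were 3 and 1, against 8.9% and 9.44% of all such pairs. The genes that stood higher were KCNQ1 and CDKN1C, with ZDBF2 (13.04 to 70.2 percentile) and GRB10 (49.7 to 60.2 percentile), which were picked out after their values were seen. At ZDBF2, KCNQ1 and CDKN1C the wild-type pileup was 11, 12 and 20 fragments, near the lowest called pileup of 7. The gene that stood lower was PHLDA2. At L3MBTL1 the strongest region differed between the lists, so no shift is given.

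**Figure D5:**
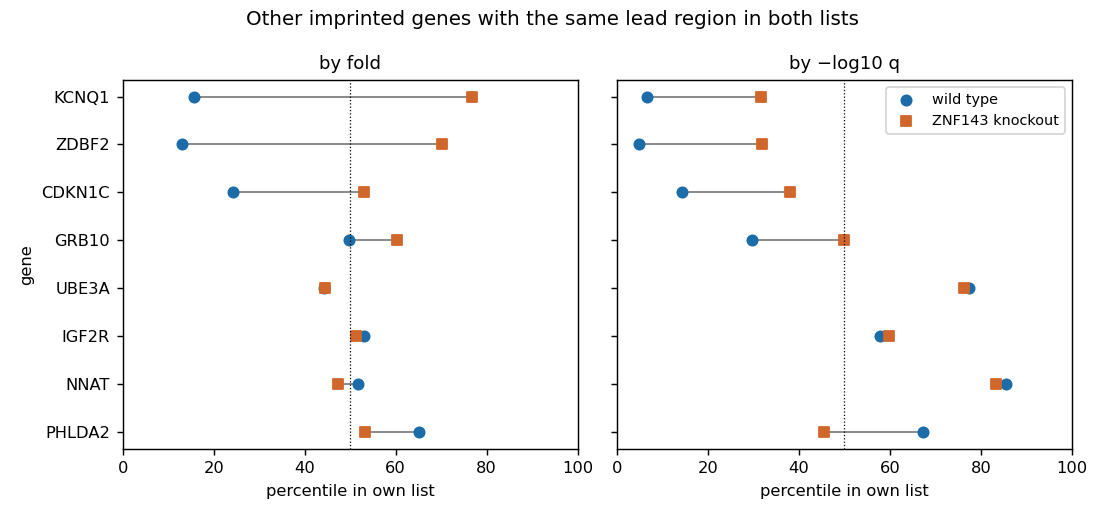
Percentile by fold and by −log10 q within each list for the 8 other imprinted genes whose strongest region was the same in wild-type (circles) and knockout (squares). KCNQ1, ZDBF2, CDKN1C and GRB10 stand higher in the knockout list by each measure, and PHLDA2 stands lower.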

How the data were processed

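H3K4me3 ChIP-seq lists from 1 wild-type and 1 ZNF143 knockout library were used. Per the submitters' processing notes, Bowtie2, SAMtools 1.12, MACS2 and deepTools were named with build hg19 (GRCh37). Peak-caller settings and a control library were not given in the sources used here. The deposited lists have 10 columns in narrowPeak layout, each called on its own library to judge by the region names. The deposited fold in column 7 was taken as a ratio of summit pileup to local background rate, with 1 added to each. The added 1 lowers the fold most where the local rate is low. The deposited columns 8 and 9 are −log10 p-values and −log10 q-values by the authors. The deposited score in column 5 and the deposited summit offsets are the authors' as well, and the score was not used. No wild-type region had a q-value above 0.0322 and no knockout region a q-value above 0.0453. Total read counts were not used, so depth is known only through pileups, and the lowest called pileup was 7 and 11 fragments.

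Whole-number pileups and local rates were solved from fold and p, with relative errors of p of at most 8.6e-06 and 1.2e-05. The solving step was checked on fold and p recomputed from the recovered pileups and rates. That check used the same formula, so it does not test the formula itself. The lowest rate was taken as the genome rate (1.40 and 3.25 fragments per base). Percentiles are ranks within a list on chromosomes 1 to 22, X and Y. Coordinates are hg19, counted from 1, except those of promoter sequences. Sharing meant an overlap of at least 1 bp. Every region at a member locus was reported, and other imprinted genes were counted, with values for those in a member's cluster. The lead region of a locus is that with the highest −log10 q. The members and lists were chosen with earlier results of these data known. The comparison with pairs within 5 Mb and the counting intervals were chosen after the data were seen. Alternatives covered distance, overlap, a −log10 q of at least 5 and the rank measure. Computations ran in Python 3.11.15 with scipy 1.17.1, pandas 2.3.3 and numpy 2.4.6, and figures were drawn with matplotlib 3.10.9.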

Additional observations from a re-analysis of the deposited data

How the results depend on the processing

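No paired analysis was possible because there was a single library of either genotype. The counts of loci (5), member regions (9), shared regions (9), marked promoters (6) and other imprinted genes with a region (9) moved by less than 1.5 times in both lists under all alternatives tried. Shared regions became 8 under a reciprocal overlap of at least 50%, and other imprinted genes became 8 at 3 kb. The median fold percentile of member regions, 23.9 for wild-type and 20.5 for knockout regions, became 20.6 and 17.0 with only regions of −log10 q 5 or more, 32.3 and 33.9 when ranked by −log10 q, and 41.8 and 42.1 when ranked by pileup. It stayed below the middle in all of these. The shift of the lead KCNQ1OT1 region, −8.45 points by fold, was −12.1 with −log10 q as the rank and −12.7 with pileup as the rank. The other pairs within 5 Mb of that region had a median shift of 1.31 points by fold and −8.07 by pileup. For PEG10, −0.85 became −2.62 and −2.89. For the Gs alpha region, −3.40 became −1.32 by −log10 q and reversed to 2.57 by pileup. The cause was not tested, beyond the fold having the local rate as its denominator. Pileups below 7 and 11 fragments were never called, so an unmarked promoter does not show that the mark is absent.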

Other observations

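Between DLK1 and MEG3, the knockout list held a region that had no partner in the wild-type list. It spanned chromosome 14 from 101158980 to 101159661, a width of 682 bp, and ended 132.8 kb before the MEG3 position. Its fold of 11.8 stood at the 53.7 percentile of the knockout list, and its pileup was 57 fragments with a −log10 q of 43.2 at the 25.5 percentile. It was picked out after its values were seen. Over the whole knockout list, 90.3% of regions overlapped a wild-type region, and the rest had no partner either. Near ZDBF2, a paternally expressed gene of chromosome 2, the wild-type region had 11 fragments and a fold of 4.99, and the knockout region 93 fragments and a fold of 14.3, a centred log2 pileup ratio of 2.19 (95% counting interval 1.28 to 3.24). Near GRB10, which encodes a growth factor receptor adaptor, the pileup was 53 and 320 fragments, a ratio of 1.70 (1.28 to 2.15). These ratios lay above those of 99.7% and 99.4% of the one-to-one pairs. With 1 library per genotype, a difference between cultures cannot be told apart from a difference between genotypes.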
